A study of Caenorhabditis elegans with 12 samples.

Results

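This account describes 9 protein-coding loci of Caenorhabditis elegans that were all but without reads in the wild type strain N2 and were read in every library labelled osm-9(ok1677). They are Y51B9A.8, F49C5.3, W05G11.4, srx-13, C36C5.15, phat-5, F07B7.1, ZK218.7 and ins-35. The members were chosen from the counts themselves, with at least 20 counts in each of the 8 osm-9(ok1677) libraries and at most 3 counts in each of the 4 N2 libraries. Of 41420 loci listed, 21204 had a count in some library and 10 met both limits. The tenth, fbxa-163, is not among the 9 named loci. Because strain difference was the means of choice, the strain values of the 9 loci are given as a description and were not tested.

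Whole late L4 worms were kept for 6 h on agar that held 51 mM NaCl, the control level, or 200 mM NaCl, the hypertonic level, before polyadenylated RNA was sequenced. The groups were osm-9(ok1677) at 51 mM and at 200 mM NaCl with 4 libraries each, and N2 Bristol at 51 mM and at 200 mM NaCl with 2 libraries each. The mutant strain is VC1262, which carries the ok1677 deletion, and the libraries used here hold no other osm-9 allele, so the allele and the rest of that strain's genome cannot be told apart. Total counts ranged from 15949889 to 21418277, so that 3 counts correspond to between 0.14 and 0.188 CPM, the unit of counts scaled to a common library size.

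The gene osm-9 encodes a TRPV cation channel of chemosensory neurons that worms need to avoid strongly hypertonic places. Its own locus had 25 to 50 counts in the libraries labelled osm-9(ok1677) and 14 to 36 in N2, and at 51 mM NaCl it was higher in the mutant by 1.37 on the log2 scale (SE 0.35, edgeR adjusted p = 0.030), with a value of 0.20 at 200 mM NaCl (SE 0.32, edgeR adjusted p = 0.774). Counts over a whole locus do not show a deletion of part of it, and the strain of each library therefore rests on its label. Along the first principal component of the osm-9(ok1677) libraries, which held 56.9% of their variance, replicates 2 and 3 stood on the other side from replicates 1 and 4 at both NaCl levels, replicate 2 at 200 mM NaCl only slightly.

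Those of the 9 loci with a family name belong to different families. Insulin-like peptides such as ins-35 are small secreted ligands, many of which act through the insulin receptor DAF-2. Class X serpentine receptors such as srx-13 are members of the large family of nematode chemoreceptors, and the phat genes encode small secreted proteins of the pharyngeal gland related to toxins. W05G11.4 is named clp-10 in the current annotation, a member of the calpain family of calcium-dependent cysteine proteases. For Y51B9A.8, F49C5.3, C36C5.15, F07B7.1 and ZK218.7 the annotation used here gives a sequence name only.

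The loci lay on 4 chromosomes of the WBcel235 assembly. Of the 9, 5 were on chromosome V, which held 24.1% of the 18335 protein-coding genes with a count, 2 were on II, 1 on III and 1 on IV, and none was on I or X. W05G11.4 spans III:35454-38217 on the minus strand, close to the end of the chromosome. On chromosome II, Y51B9A.8 spans II:9398851-9399662 and F49C5.3 spans II:12536503-12538691, both on the plus strand. On chromosome V, C36C5.15 (V:3167968-3168750) and phat-5 (V:4121489-4122515) are on the minus strand, and F07B7.1 (V:8872277-8873535), ZK218.7 (V:17105783-17106656) and ins-35 (V:20375536-20376302) are on the plus strand. srx-13 spans IV:1114697-1118666 on the minus strand. Its exons share 78 bases with the noncoding gene C44B12.12 of the opposite strand. F49C5.3 lies inside nimk-1 on the same strand, without shared exon bases. Whether the counting used strand is not given in the sources used here, so srx-13 is uncertain in that respect.

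At 3 of the loci no read was counted in any N2 library. F07B7.1 had the highest counts of the 9, with 315, 312, 390 and 303 in osm-9(ok1677) at 51 mM NaCl and 340, 321, 354 and 288 at 200 mM NaCl, against 0 in all N2 libraries. It averaged 17.0 ± 2.26 CPM in osm-9(ok1677) at 51 mM and 16.6 ± 1.27 CPM at 200 mM NaCl (SD, n = 4 each). Set against a floor of 3 counts over the 2 N2 libraries of a group, this was at least 222-fold higher in osm-9(ok1677) at 51 mM and at least 217-fold higher at 200 mM NaCl. The 8 mutant libraries were close together, the highest CPM being 1.34 times the lowest.

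ZK218.7 had 100, 126, 129 and 152 counts in osm-9(ok1677) at 51 mM NaCl and 140, 112, 98 and 186 at 200 mM NaCl, against 0 in all N2 libraries. Replicate 4 was the highest at both NaCl levels, and the level was at least 85.2-fold higher than in N2 at 51 mM and at least 89.4-fold higher at 200 mM NaCl. W05G11.4, the calpain, had 32, 35, 59 and 51 counts in osm-9(ok1677) at 51 mM NaCl and 48, 48, 75 and 76 at 200 mM NaCl, against 0 in all N2 libraries. Its level was at least 29.7-fold higher than in N2 at 51 mM and at least 41.2-fold higher at 200 mM NaCl. These bounds and the intervals that follow pool the libraries of a group and cover counting error only. Because the same counts chose the named loci, intervals in favour of osm-9(ok1677) were set by the choice and are no test.

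The other 6 loci had 1 to 3 counts in at least 1 N2 library. C36C5.15 had 84, 97, 192 and 99 counts in osm-9(ok1677) at 51 mM NaCl, against 2 and 2 in N2. In 200 mM NaCl the locus had 49, 75, 105 and 68 counts in osm-9(ok1677), against 1 and 0 in N2. Replicate 3 was the highest mutant library at both NaCl levels. The ratio of osm-9(ok1677) to N2 was 59.5 at 51 mM NaCl (exact 95% interval 23.1 to 219.2) and 149 at 200 mM NaCl, where N2 had 1 count in all (interval 26.5 to 5889).

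Y51B9A.8 had 80, 42, 77 and 73 counts in osm-9(ok1677) at 51 mM NaCl, against 1 and 1 in N2. On 200 mM NaCl plates its counts were 60, 54, 85 and 75 in osm-9(ok1677), against 1 and 2 in N2. It averaged 3.42 ± 0.55 CPM in the mutant at 51 mM and 3.49 ± 0.72 CPM at 200 mM NaCl (SD, n = 4 each). Replicate 2 had the lowest count at both, and also the smallest library of the mutant group at both. By CPM replicate 2 was lowest at 51 mM but not at 200 mM NaCl, where it stood at 2.89 and replicate 1 at 2.88. The ratio to N2 was 68.6 at 51 mM (interval 18.8 to 569) and 45.7 at 200 mM NaCl (interval 15.5 to 223).

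The insulin-like gene ins-35 had 48, 56, 51 and 70 counts in osm-9(ok1677) at 51 mM NaCl, against 1 and 3 in N2. After 200 mM NaCl it had 23, 36, 47 and 44 counts in osm-9(ok1677), against 1 and 2 in N2. The ratio to N2 was 28.4 at 51 mM (interval 10.9 to 105) and 25.02 at 200 mM NaCl (interval 8.40 to 123). The pharyngeal gland gene phat-5 had 30, 94, 61 and 37 counts in osm-9(ok1677) at 51 mM NaCl, against 2 and 3 in N2, and 28, 69, 38 and 50 counts at 200 mM NaCl, against 0 and 3 in N2. Its 8 mutant libraries were the most uneven of the 9 loci, the highest CPM being 4.34 times the lowest, with replicate 2 highest at both NaCl levels. The ratio to N2 was 22.4 at 51 mM (interval 9.45 to 69.6) and 30.9 at 200 mM NaCl (interval 10.4 to 151).

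The 2 loci nearest to the lower count limit were srx-13 and F49C5.3. The chemoreceptor gene srx-13 had 25, 20, 31 and 31 counts in osm-9(ok1677) at 51 mM NaCl, against 1 and 0 in N2, and 28, 20, 22 and 29 counts at 200 mM NaCl, against 1 and 1 in N2. F49C5.3 had 41, 35, 40 and 25 counts in osm-9(ok1677) at 51 mM NaCl, against 0 and 0 in N2, and 36, 40, 38 and 20 counts at 200 mM NaCl, against 1 and 2 in N2. For srx-13 the ratio to N2 was 53.9 at 51 mM (interval 9.48 to 2150) and 24.8 at 200 mM NaCl (interval 6.68 to 207). F49C5.3 was at least 23.7-fold higher than in N2 at 51 mM NaCl, and its ratio at 200 mM NaCl was 22.4 (interval 7.49 to 109.7). Both loci touched the limit of 20 counts in the mutant, and phat-5 and ins-35 touched the limit of 3 counts in N2.

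**Figure D1:**
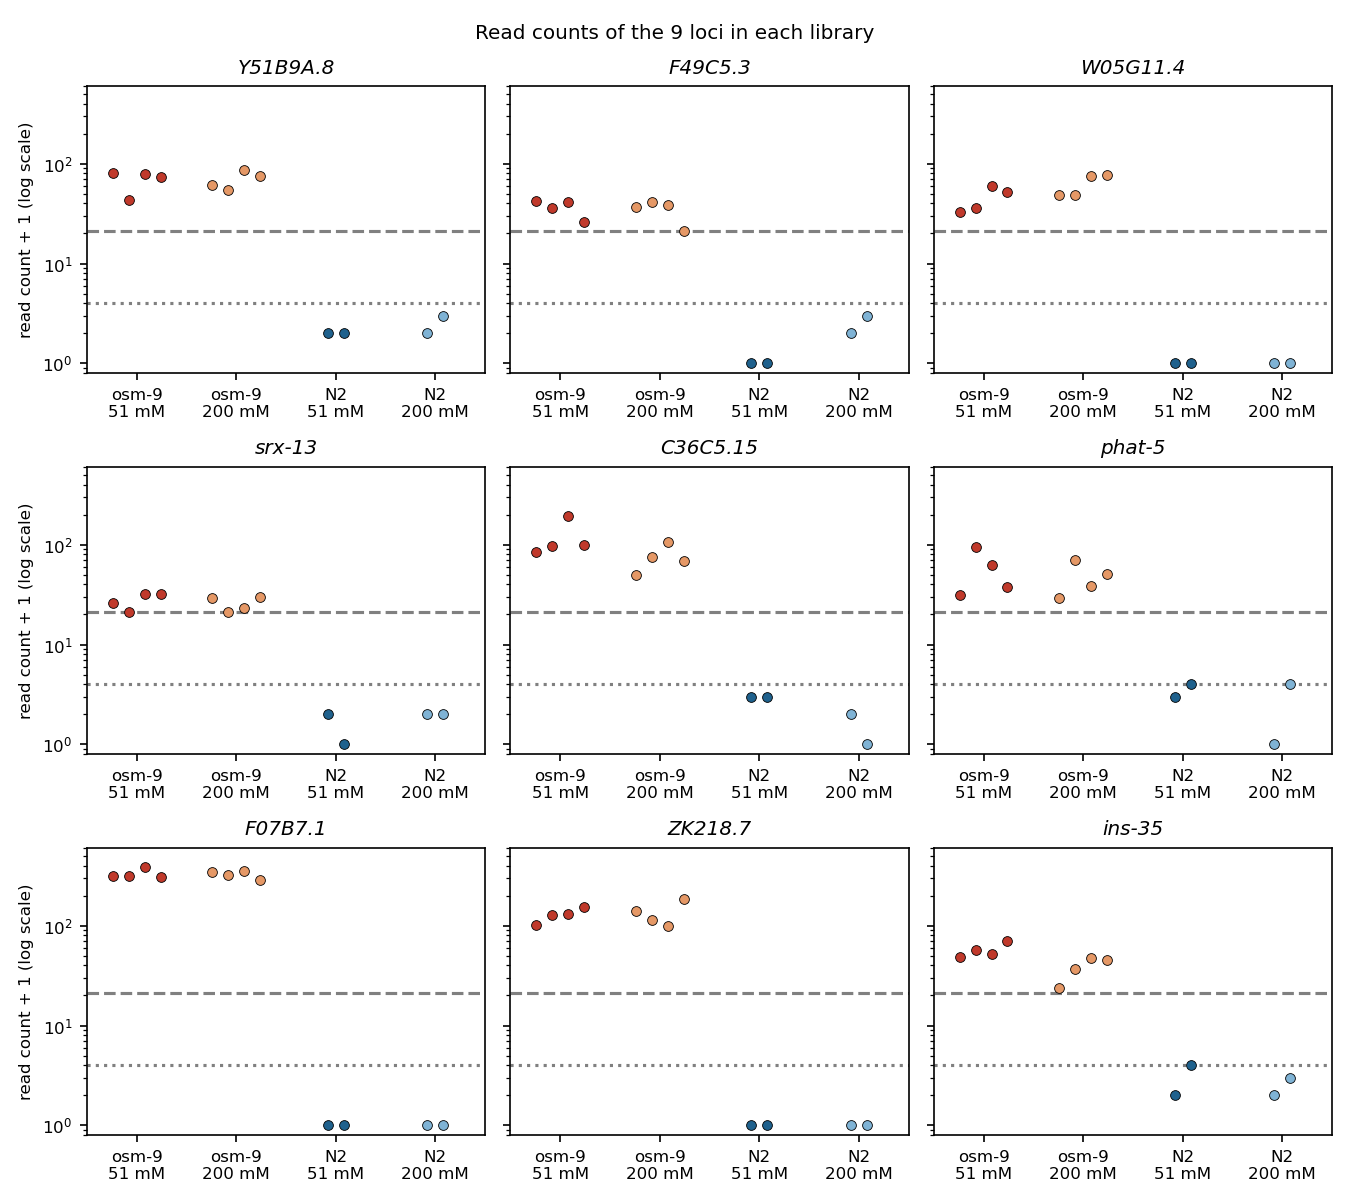
Read counts plus 1, on a log axis, of the 9 loci in each library, by strain and NaCl level, with points of a group in replicate order from left to right. The dashed line marks 20 counts and the dotted line 3 counts, and every osm-9(ok1677) library stands on or above the first while every N2 library stands on or below the second, as the choice of the loci requires.

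Per kilobase of exon, the order of the loci changed because their lengths differ. F07B7.1 stood at 18.4 CPM per kilobase in osm-9(ok1677) at 51 mM NaCl, followed by C36C5.15 at 9.82, ZK218.7 at 8.46, ins-35 at 7.67 and Y51B9A.8 at 6.85. phat-5 at 3.28, srx-13 at 1.395, W05G11.4 at 1.28 and F49C5.3 at 1.03 were lower. At 200 mM NaCl F07B7.1 was again the highest at 18.0 and F49C5.3 the lowest at 0.98 CPM per kilobase.

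Just outside the limits stood loci that missed them in 1 library. ZK218.11 had 0 counts in every N2 library and 19 in its lowest osm-9(ok1677) library. C17B7.3 had 27 to 86 counts in osm-9(ok1677) and 1 to 4 in N2, and Y39G8B.7 had 16 to 34 counts in osm-9(ok1677) and 0 to 3 in N2.

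The NaCl response within osm-9(ok1677) was not used to choose the loci and could be tested. None of the 9 loci was called between 200 mM and 51 mM NaCl by the edgeR quasi-likelihood test at an adjusted p of 0.05, against 0.351% of the 15403 loci tested. At an unadjusted p of 0.05 the count was also 0, against 5.57% of all loci, and DESeq2 called 0 of the 9 by adjusted p, against 1.31% of all loci. Beside such shares, a count of 0 among 9 is no result about these loci.

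C36C5.15 averaged 3.80 ± 1.23 CPM at 200 mM and 6.01 ± 2.19 CPM at 51 mM NaCl (SD, n = 4 each), lower at 200 mM in 4 of 4 same-numbered pairs. Its log2 fold change was -0.66 (SE 0.31, edgeR adjusted p = 0.951). ins-35 averaged 1.92 ± 0.58 CPM at 200 mM and 2.93 ± 0.75 CPM at 51 mM NaCl (SD, n = 4 each), also lower at 200 mM in 4 of 4 pairs, with a log2 fold change of -0.60 (SE 0.30, edgeR adjusted p = 0.983). W05G11.4 averaged 3.15 ± 0.84 CPM at 200 mM and 2.27 ± 0.60 CPM at 51 mM NaCl (SD, n = 4 each), higher at 200 mM in 4 of 4 pairs, with a log2 fold change of 0.48 (SE 0.28, edgeR adjusted p = 1.0). The other 6 loci had log2 fold changes between -0.32 and 0.05. With the replicate number as a block, none of the 9 was called by adjusted p, against 2.48% of all loci, and 3 of the 9 had an unadjusted p of 0.05 or less. C36C5.15 then had an adjusted p of 0.074, ins-35 of 0.20 and W05G11.4 of 0.32.

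**Figure D2:**
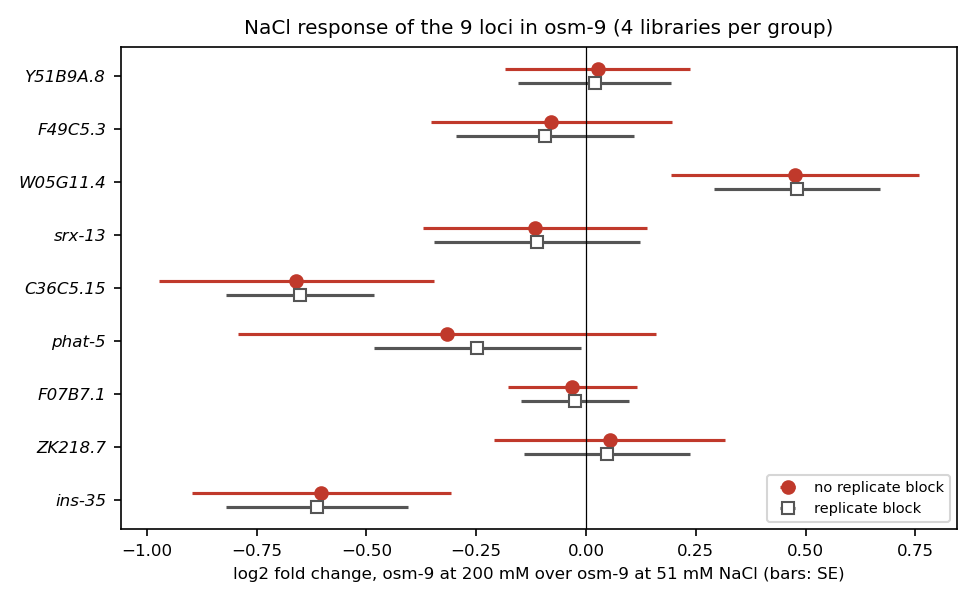
Log2 fold change of each of the 9 loci in osm-9(ok1677), 200 mM over 51 mM NaCl, with bars of 1 SE, from the edgeR fit without (filled circles) and with (open squares) the replicate block. C36C5.15 and ins-35 lie at -0.66 and -0.60 and W05G11.4 at 0.48 without the block, and none of the 9 loci was called in either fit.

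The genes beside the 9 loci were not used to choose them and were tested between the strains. Of the 36 nearest protein-coding genes, 2 on each side of each locus, 21 passed the filter on low counts. At 51 mM NaCl 8 of the 21 were called, 7 higher and 1 lower in osm-9(ok1677). Of all loci tested 12.3% were called there, 7.64% higher and 4.63% lower. With 200 mM NaCl 6 of the 21 were called, 5 higher and 1 lower, beside 6.43% of all loci, 4.13% higher and 2.3% lower. Among the genes called higher, ZK218.5, ZK218.11, C36C5.14 and nimk-1 passed the filter only through osm-9(ok1677) libraries. Such genes, low in N2, could enter the test only by being higher in the mutant, so the counts of calls are given as a description. The median log2 fold change of the 21 neighbours was 1.61 at 51 mM and 0.73 at 200 mM NaCl, beside 0.05 and 0.05 over all loci tested. Genes that lie side by side share a region of the genome and are not independent of each other. Without N2 replicate 1 the calls were 4 at 51 mM and 3 at 200 mM NaCl, and without N2 replicate 2 they were 3 and 2.

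Beside ZK218.7 both nearest tested genes were higher in osm-9(ok1677). ZK218.11, on the opposite strand with a gap of 731 bases, had 25, 75, 62 and 57 counts in osm-9(ok1677) at 51 mM NaCl and 19, 43, 36 and 59 at 200 mM NaCl, against 0 in all N2 libraries. It was at least 36.8-fold higher in the mutant at 51 mM (edgeR adjusted p = 0.004) and at least 26.2-fold higher at 200 mM NaCl (edgeR adjusted p = 0.009). The call was lost without N2 replicate 2 at 51 mM (adjusted p = 0.056) and without N2 replicate 1 or 2 at 200 mM NaCl (0.068 and 0.085). ZK218.5 had 198, 227, 226 and 318 counts in osm-9(ok1677) at 51 mM NaCl, against 0 and 4 in N2, and 248, 194, 155 and 340 counts at 200 mM NaCl, against 0 and 6 in N2. Its ratio to N2 was 122 at 51 mM (interval 47.5 to 449, edgeR adjusted p = 0.001) and 78.1 at 200 mM NaCl (interval 35.8 to 213, edgeR adjusted p = 0.001). As at ZK218.7, replicate 4 was the highest mutant library for ZK218.5 at both NaCl levels. F40D4.17, 47917 bases from ZK218.7, was lower in osm-9(ok1677), with a log2 fold change of -1.66 at 51 mM (SE 0.37, edgeR adjusted p = 0.016) and -1.76 at 200 mM NaCl (SE 0.37, edgeR adjusted p = 0.016). Its calls were lost without N2 replicate 1 or 2 (adjusted p = 0.062 and 0.143 at 51 mM, 0.156 and 0.078 at 200 mM NaCl) and, at 200 mM NaCl, without osm-9(ok1677) replicate 4 (0.056).

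F07B7.2 ends 273 bases from F07B7.1 on the same strand and had 726, 696, 661 and 708 counts in osm-9(ok1677) at 51 mM NaCl, against 18 and 8 in N2. At 200 mM NaCl it had 732, 596, 593 and 601 counts in osm-9(ok1677), against 6 and 14 in N2. Its log2 fold change was 5.77 at 51 mM (SE 0.35, edgeR adjusted p = 2.8e-06) and 5.96 at 200 mM NaCl (SE 0.36, edgeR adjusted p = 3.5e-06). The annotation holds a second pair, W09B7.1 and W09B7.2, on the same chromosome. W09B7.1, at V:8830183-8831441, has the same exon length as F07B7.1, 924 bases. The rows of this pair had at most 3 counts in osm-9(ok1677) and 0 in N2, and how reads that match both pairs were divided is not given in the sources used here, so the values of F07B7.1 and F07B7.2 are uncertain in that respect.

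C36C5.14, 2429 bases from C36C5.15 on the same strand, had 114, 145, 224 and 115 counts in osm-9(ok1677) at 51 mM NaCl, against 7 and 4 in N2. At 200 mM NaCl it had 66, 107, 162 and 85 counts in osm-9(ok1677), against 11 and 3 in N2. Replicate 3 was the highest mutant library at both NaCl levels, as at C36C5.15. The log2 fold change was 4.76 at 51 mM (SE 0.62, edgeR adjusted p = 0.001) and 3.89 at 200 mM NaCl (SE 0.59, edgeR adjusted p = 0.003). The value at 200 mM NaCl was 5.08 without N2 replicate 1 and 3.22 without N2 replicate 2, where the call was lost (adjusted p = 0.080). C36C5.12, farther along and named after its values were seen, had 203 to 341 counts in osm-9(ok1677) and 45 to 55 in N2.

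**Figure D3:**
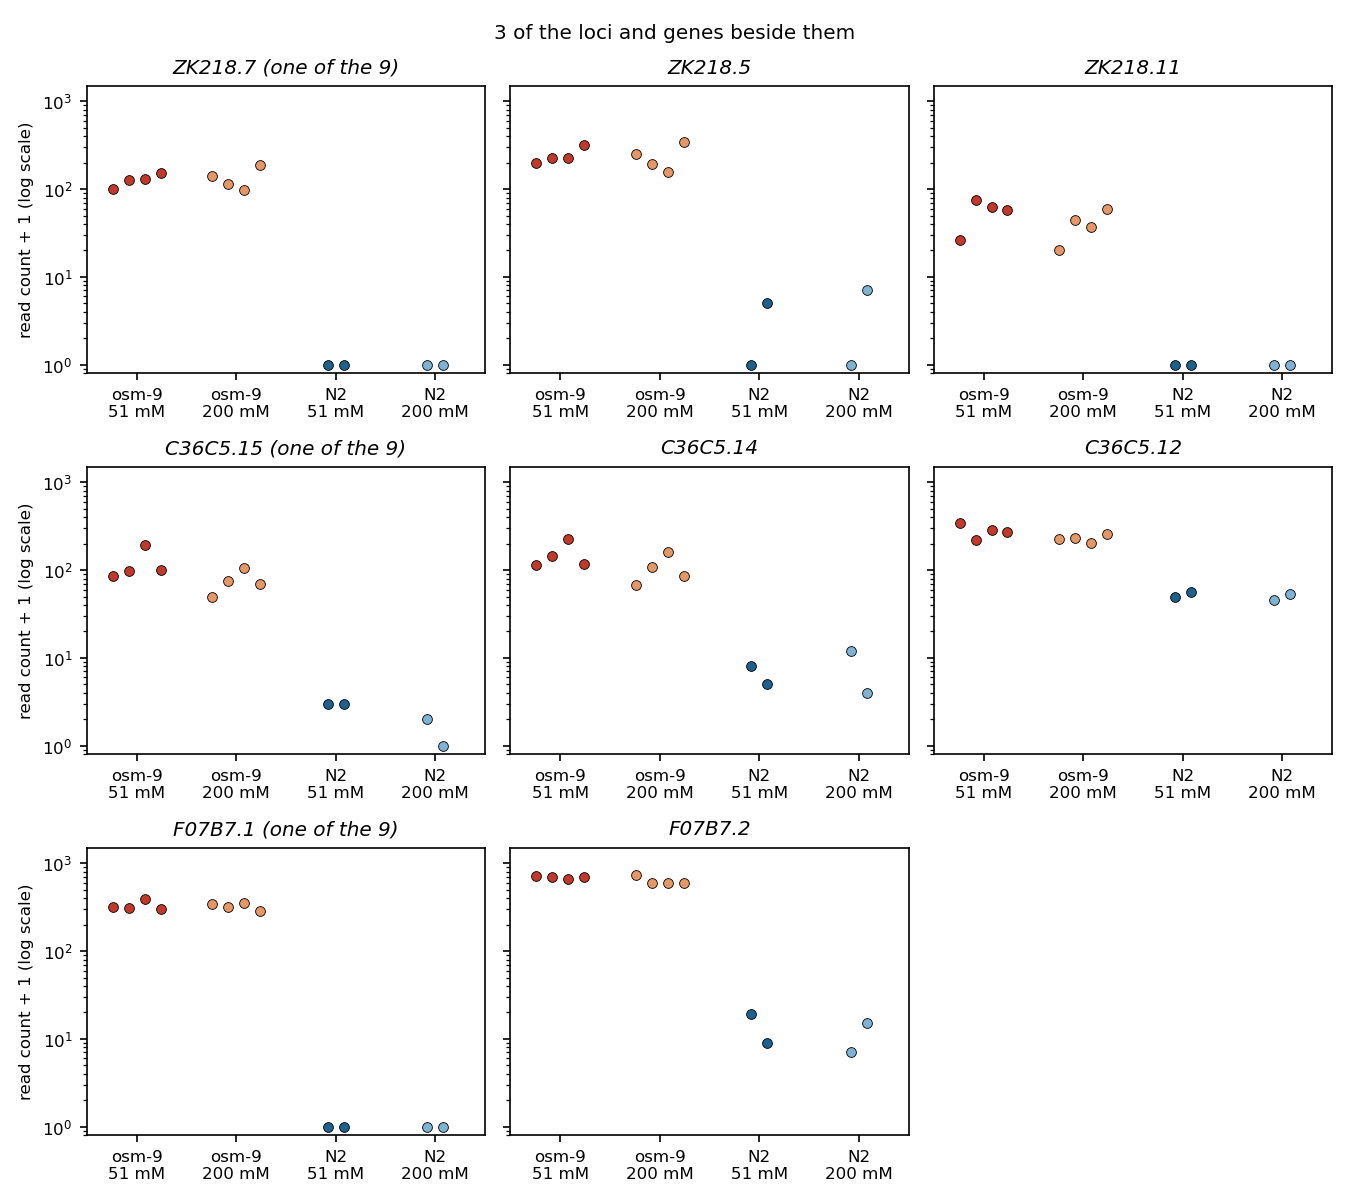
Read counts plus 1, on a log axis, in each library for ZK218.7, C36C5.15 and F07B7.1 (left panels) and for genes beside them, points of a group in replicate order from left to right. At ZK218.11 all N2 libraries stand at 0 counts, as they do at ZK218.7, while C36C5.12 has 45 to 55 counts in N2.

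The tested gene nearest to W05G11.4, the collagen gene col-88 at 2845 bases, was not called, with a log2 fold change of 1.61 at 51 mM (SE 0.87, edgeR adjusted p = 0.242) and 0.085 at 200 mM NaCl (SE 0.80, edgeR adjusted p = 0.966). H10E21.5 and H10E21.4 lie 11491 and 15778 bases from W05G11.4 toward the chromosome end. H10E21.5 was higher in osm-9(ok1677) by 1.73 at 51 mM (SE 0.31, edgeR adjusted p = 0.006) and 1.59 at 200 mM NaCl (SE 0.31, edgeR adjusted p = 0.011) on the log2 scale. Its calls were lost without N2 replicate 1 or 2 (adjusted p = 0.062 and 0.061 at 51 mM, 0.140 and 0.070 at 200 mM NaCl). H10E21.4 was higher by 3.35 at 51 mM NaCl (SE 0.86, edgeR adjusted p = 0.029), with a value of 2.17 at 200 mM NaCl (SE 0.80, edgeR adjusted p = 0.126), where DESeq2 called it (adjusted p = 0.023). At 51 mM NaCl it had 1697, 5794, 9473 and 2162 counts in osm-9(ok1677), against 389 and 570 in N2, so replicates 2 and 3 were the highest. Without replicates 2 and 3 its value was 1.89 at 51 mM (adjusted p = 0.026) and 1.26 at 200 mM NaCl (adjusted p = 0.120). The call at 51 mM was lost without osm-9(ok1677) replicate 2 (0.063) and without N2 replicate 1 or 2 (0.177 and 0.179), as well as with only the 2 groups compared in the fit (0.058), and the value at 200 mM was 1.63 without N2 replicate 1 and 3.02 without N2 replicate 2. Unlike W05G11.4, both were read in N2, with 389 to 1104 counts for H10E21.4 and 150 to 242 for H10E21.5. nimk-1, listed as F49C5.4 and holding F49C5.3 within it, had 6 to 24 counts in osm-9(ok1677) and 2 to 3 in N2, higher in the mutant by 2.41 at 51 mM NaCl (SE 0.61, edgeR adjusted p = 0.027), with a value of 2.10 at 200 mM NaCl (SE 0.64, edgeR adjusted p = 0.075). Its call at 51 mM was lost without osm-9(ok1677) replicate 3 or 4 (0.060 and 0.064) and without N2 replicate 1 or 2 (0.165 and 0.208), as well as with only the 2 groups compared in the fit (0.0503), and at 200 mM it was called without osm-9(ok1677) replicate 1 (0.047).

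Around Y51B9A.8, srx-13, phat-5 and ins-35, 12 of the 2 nearest genes on each side could be tested. edgeR called 0 of the 12 at both NaCl levels, beside 12.3% of all loci at 51 mM and 6.43% at 200 mM NaCl. A count of 0 among 12 is no result about these loci. With the replicate block 6 and 3 of the 12 were called, beside 26.3% and 19.1% of all loci. That block treats a replicate number as shared between the strains, which no label states. At an unadjusted p of 0.05 there were 5 of the 12 at 51 mM and 2 at 200 mM NaCl, beside 29.1% and 23.9% of all loci. DESeq2 called 1 of the 12 at each, beside 18.5% and 11.8%. T05B4.10, 759 bases from phat-5, had 5, 21, 21 and 17 counts in osm-9(ok1677) at 51 mM NaCl against 0 and 4 in N2, a log2 fold change of 2.97 (SE 0.998, edgeR adjusted p = 0.073). K02E2.8, beside ins-35, had 24, 105, 161 and 29 counts in osm-9(ok1677) at 51 mM NaCl against 7 and 15 in N2, a log2 fold change of 2.88 (SE 0.94, edgeR adjusted p = 0.067). At both genes replicates 2 and 3 were the highest of these mutant libraries. On the other side of ins-35, K02E2.6 had a log2 fold change of 0.005 at 51 mM NaCl (SE 0.20), with 174 to 321 counts in osm-9(ok1677) and 241 to 288 in N2. Beside srx-13, srx-14 had 1 to 7 counts in osm-9(ok1677) and 0 in every N2 library and was too low to test. Farther off but within 25 kb, a distance chosen after seeing the data, edgeR called other genes at 51 mM NaCl. T05B4.8 and lgc-1 near phat-5 were higher in osm-9(ok1677), as were grd-11, F53H2.1 and cnc-7 near ins-35. Y51B9A.5 near Y51B9A.8 and T05B4.14 near phat-5 were lower. Of these genes only F53H2.1 and Y51B9A.5 were also called at 200 mM NaCl. T05B4.8, lgc-1, grd-11 and F53H2.1 passed the filter on low counts only through osm-9(ok1677) libraries.

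**Figure D4:**
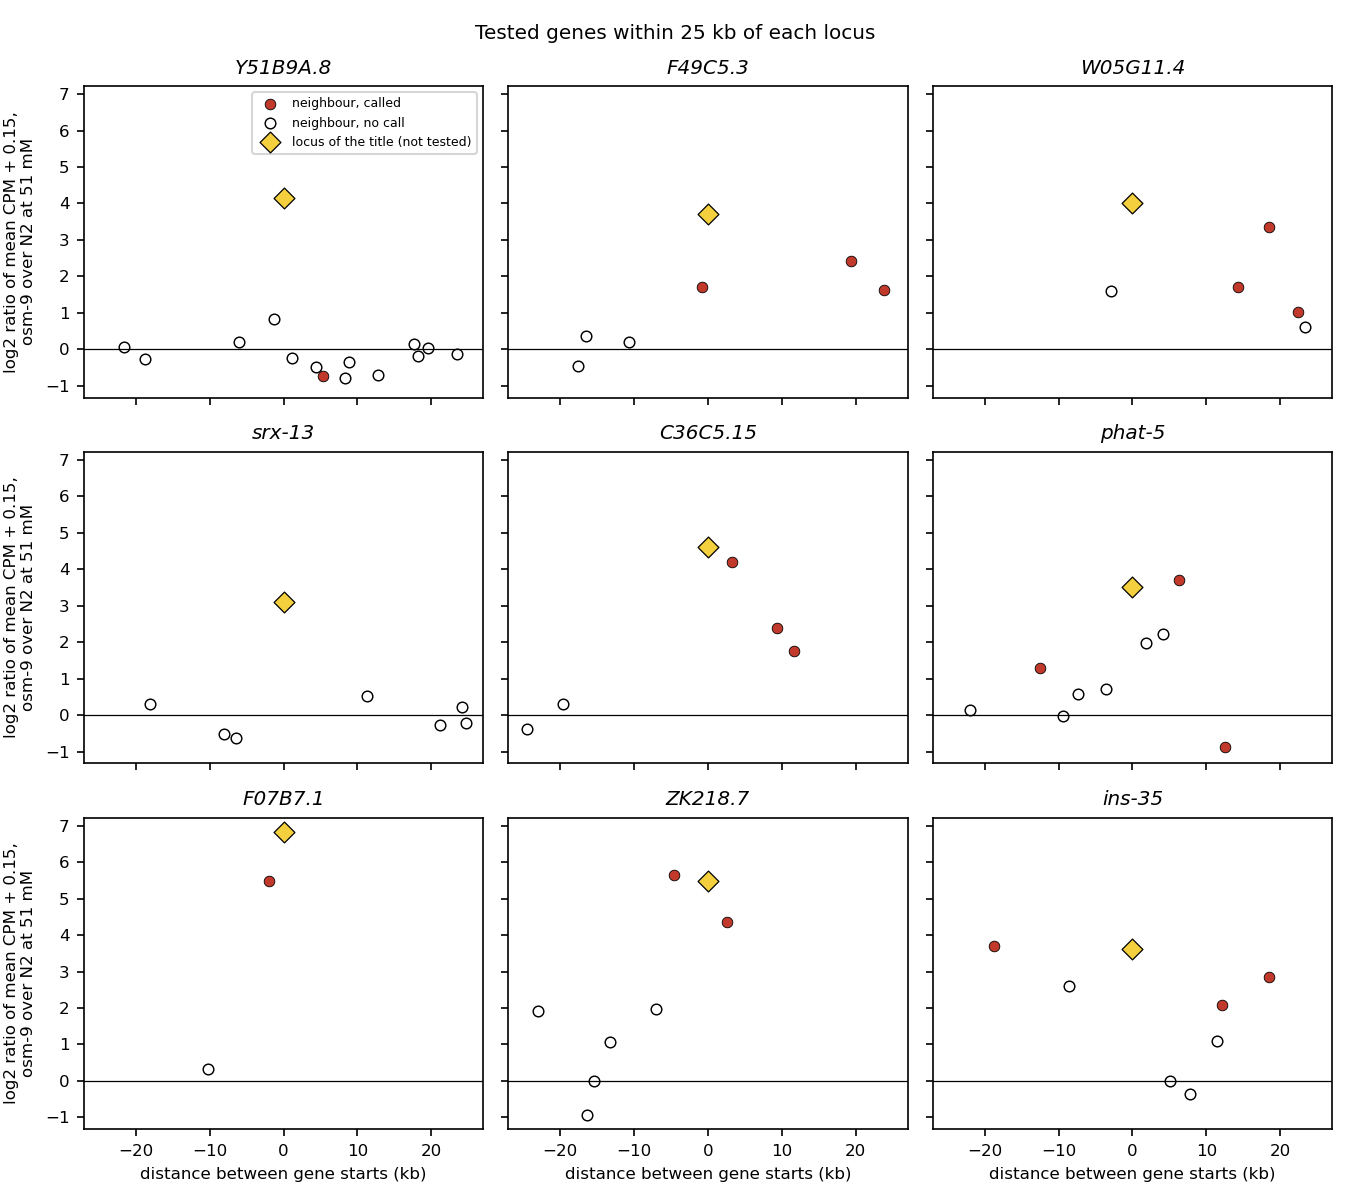
Log2 ratio of mean CPM plus 0.15, osm-9(ok1677) over N2 at 51 mM NaCl, of the tested genes within 25 kb of each locus against the distance between gene starts, positive in the direction of the locus's transcription. Red points were called, open points were not, and yellow diamonds are the 9 loci, which were not tested in this contrast. Of the 62 neighbours within this distance 19 were called, 17 of them higher, beside 12.3% called and 7.64% higher over all loci tested. The distance was chosen after seeing the data, and genes that lie side by side are not independent of each other. Some of the called genes passed the filter on low counts only through osm-9(ok1677) libraries.

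Other genes of the named families were counted without the 9 loci, and their counts stand beside shares over all loci tested of 12.3% called at 51 mM NaCl (7.64% higher, 4.63% lower) and 6.43% at 200 mM NaCl (4.13% higher, 2.3% lower). Of the 39 insulin-like genes listed, 25 besides ins-35 could be tested, and at 51 mM NaCl the mutant had 4 higher and 2 lower. Both of the lower loci join an insulin-like gene with another gene, acdh-2 with ins-13 and htas-1 with ins-7. The largest differences at 51 mM NaCl were at ins-11, ins-31 and the acdh-2 and ins-13 locus, the last at -2.57 on the log2 scale (SE 0.38, edgeR adjusted p = 0.002). ins-11 had 7 to 14 counts in osm-9(ok1677) against 0 and 0 in N2, a value of 6.44 (SE 1.30, edgeR adjusted p = 0.012). ins-31 had 2 to 15 against 0 and 0, a value of 6.32 (SE 1.72, edgeR adjusted p = 0.039). Both passed the filter on low counts only through osm-9(ok1677) libraries. At 200 mM NaCl N2 had 1 and 6 counts of ins-11 and 0 and 3 of ins-31, and neither was called. The counts of a joined locus cannot be divided between its genes, so no separate insulin-like gene was called lower. At 200 mM NaCl 1 insulin-like gene was higher, ins-20 at 1.65 (SE 0.43, edgeR adjusted p = 0.043). This gene, with 7 and 11 counts in N2 at 200 mM NaCl, also passed the filter only through osm-9(ok1677) libraries. Only the joined acdh-2 and ins-13 locus was lower, at -2.55 (SE 0.37, edgeR adjusted p = 0.003). The 2 of 25 called at 200 mM NaCl are near the share over all loci. The median log2 fold change of the 25 was 0.48 at 51 mM and 0.27 at 200 mM NaCl.

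None of the 7 other phat genes was called in either strain comparison by edgeR at an adjusted p of 0.05, with medians of 0.80 at 51 mM and -0.03 at 200 mM NaCl. At an unadjusted p of 0.05 there were 2 at 51 mM and 1 at 200 mM NaCl, beside 29.1% and 23.9% of all loci. DESeq2 called 1 and 0, beside 18.5% and 11.8%. Beside the shares of 12.3% and 6.43%, a count of 0 among 7 genes is no result about the family. The 6 genes of the pharyngeal gland list, mostly other phat genes, summed to 35.8 to 91.3 CPM in osm-9(ok1677) at 51 mM NaCl against 27.03 to 47.2 CPM in N2, ranges that overlap. Of 137 class X receptor genes only 8 besides srx-13 could be tested, and srx-21 was higher at 51 mM, by 1.61 (SE 0.40, edgeR adjusted p = 0.024), and at 200 mM NaCl, by 3.43 (SE 0.51, edgeR adjusted p = 0.003). N2 had 11 and 7 counts of srx-21 at 51 mM and 1 and 3 at 200 mM NaCl. srx-21 passed the filter on low counts only through osm-9(ok1677) libraries. A count of 1 of 8 is near the 12.3% called over all loci at 51 mM NaCl and stands beside 6.43% at 200 mM NaCl. In the NaCl response of osm-9(ok1677) edgeR called 0 genes of these 3 families, beside 0.351% of all loci, and DESeq2 0, beside 1.31%. At an unadjusted p of 0.05 there was 1, an insulin-like gene, beside 5.57% of all loci.

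Outside the 9, the 5 loci with the widest gap between the lowest osm-9(ok1677) and the highest N2 library were C38D9.2, F15D4.5, F07B7.2, R03H10.6 and ZK218.5. The log2 gap, with 0.15 CPM added to both levels, was 6.78 at C38D9.2, where the counts were 2109 to 2729 in osm-9(ok1677) and 10 to 16 in N2. F07B7.1 had the second widest gap of all loci, 6.60, and ZK218.7 the fourth, 4.97, while ins-35 had a gap of 2.04. F07B7.2 and ZK218.5 are themselves neighbours of F07B7.1 and ZK218.7.

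With the strains exchanged, 6 loci met the same limits, with at most 3 counts in each osm-9(ok1677) library and at least 20 in each N2 library. 4 of them, nhr-204, lgc-26, npr-5 and F33E11.2, lie within V:254838-300005. F33E11.2 had 0 to 2 counts in osm-9(ok1677) and 360 to 525 in N2, and npr-5, a neuropeptide receptor gene, had 0 to 1 counts in osm-9(ok1677) and 115 to 214 in N2. The next gene, F33E11.3, starts at position 300021 and had 823 to 1302 counts in osm-9(ok1677) and 644 to 926 in N2. The other 2 loci, fbxa-191 and fbxa-193, are annotated as pseudogenes of the F-box A family and are also on chromosome V.

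Some lists of stage and tissue genes held called genes in the strain comparisons, and since whole worms were used, more cells of a type and more RNA per cell cannot be told apart. Of 10 molting genes tested, the mutant had 5 higher at 51 mM NaCl, beside 7.64% of all loci, and 2 at 200 mM NaCl, beside 4.13%, and none lower. Their summed level was 465 to 1029 CPM in osm-9(ok1677) at 51 mM NaCl against 184 to 185 CPM in N2, and 299 to 902 CPM against 247 to 337 CPM at 200 mM NaCl. Replicates 2 and 3 of osm-9(ok1677), which stood apart, had the highest molting sums at both NaCl levels, with 984 and 1029 CPM at 51 mM against 555 and 465 CPM in replicates 1 and 4. The 6 yolk genes summed to 9283 to 33510 CPM in osm-9(ok1677) at 51 mM NaCl against 39506 to 44811 CPM in N2, with replicates 2 and 3 lowest, and 0 of the 6 were called by edgeR, by DESeq2 or at an unadjusted p of 0.05. Of 43 sperm genes tested, edgeR called 5 lower in osm-9(ok1677) at 51 mM, beside 4.63% of all loci, and 4 at 200 mM NaCl, beside 2.3%. DESeq2 called 14 and 18 of the 43 in either direction, beside 18.5% and 11.8% of all loci, and at an unadjusted p of 0.05 there were 23 and 29, beside 29.1% and 23.9%. Of 8 oocyte and eggshell genes 0 were called in either strain comparison by edgeR, by DESeq2 or at an unadjusted p of 0.05. Of 7 genes of ciliated sensory neurons 2, che-3 and osm-6, were higher at 51 mM NaCl, beside 7.64% of all loci. osm-6 had 10 to 15 counts in osm-9(ok1677) against 4 and 6 in N2 (edgeR adjusted p = 0.044), and DESeq2 called 1 of the 7, beside 18.5% of all loci. At 200 mM NaCl 0 of the 7 were higher, beside 4.13%, and DESeq2 and an unadjusted p of 0.05 also gave 0. No gene of these 5 lists was at 0 in all libraries of a group. The part of these differences in the levels of the 9 loci was not tested.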

How the data were processed

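Messenger RNA of 12 whole-worm libraries was analysed from the deposited read counts, 1 whole number per locus and library, without normalization. Per the labels and the study's methods, the authors aligned paired reads to WS235 with TopHat 1.4.1 and assigned them to Ensembl genes with Cufflinks 2.0.1, and edgeR 3.2.4 is named in the submitters' processing notes. The members and gene lists were chosen with earlier results of these data known. Loci were filtered with filterByExpr (minimum count 10, minimum total 15), which left 15403 of 41420, scaled with TMM factors and fitted with the quasi-likelihood test of edgeR 4.0.16 in R 4.3.3, with 1 mean for each of the 4 groups. Tests were two-sided with Benjamini-Hochberg adjustment over all loci tested and a threshold of 0.05.

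Same-numbered osm-9(ok1677) libraries, numbered in the labels, deviated together between NaCl levels (r = 0.70, 0.52, 0.81 and 0.59), so the fit with the replicate block is given for that contrast. Nothing in the labels says that replicates came from separate cultures, while the study's methods speak of independent experiments. No pair of replicates agreed within sampling noise. The method was tested on simulated counts of 15165 loci, where 94 of 100 changes of 4-fold and 51 of 100 of 2-fold were recovered for the NaCl response. For the strain comparisons 89 of 100 changes of 4-fold and 37 of 100 of 2-fold were recovered at 51 mM NaCl. At 200 mM NaCl these were 87 and 31. Only loci above a floor on the mean count were changed, so recovery at lower loci was not tested. Positions come from the Ensembl 115 annotation of WBcel235. Named are the 9 loci, called or overlapping genes among the 2 nearest on each side and called family genes (at most 3 per list and contrast). Also named are osm-9, the 5 other loci with the widest gap and the loci of the exchanged limits. Genes named outside this rule were chosen after their values were seen. Alternatives were DESeq2 1.42.0, other scaling and filters, fits of 2 groups, the replicate block and leaving out replicates.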

Additional observations from a re-analysis of the deposited data

How the results depend on the processing

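No alternative called any of the 9 loci in the NaCl response of osm-9(ok1677), and leaving out 1 replicate at a time also gave 0. Beside 0.351% of all loci called in the fit without the block, a count of 0 among 9 is no result about the loci. Small differences changed sign without reaching the threshold. Y51B9A.8 was at -0.0017 without osm-9 replicate 2, -0.057 without osm-9 replicate 3 and -0.12 without both, and ZK218.7 was at -0.091 without osm-9 replicate 1 and -0.057 without osm-9 replicate 4. F07B7.1 was at 0.019 without osm-9 replicate 2. Over all left-out replicates Y51B9A.8 ranged between -0.057 and 0.13, F07B7.1 between -0.11 and 0.019 and ZK218.7 between -0.091 and 0.20. Without osm-9 replicates 2 and 3, an alternative chosen after seeing the data, F07B7.1 was at 0.071, srx-13 at 0.070 and phat-5 at 0.27.

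The neighbours called between the strains numbered 8 at 51 mM and 6 at 200 mM NaCl, and leaving out 1 replicate gave 3 to 10 and 2 to 7. With the replicate block, which for the strains rests on replicates 1 and 2 since N2 has no others, 14 and 10 were called, beside 26.3% and 19.1% of all loci. Of these, 6 and 3 were among the 12 tested neighbours of Y51B9A.8, srx-13, phat-5 and ins-35, where the fit without the block called 0. The block also called H10E21.4 at 200 mM NaCl. It treats a replicate number as shared between the strains, which no label states. There were, at an unadjusted p of 0.05, 13 and 10, beside 29.1% and 23.9% of all loci. With 1 gene on each side the counts were 4 and 3, of 10 tested, beside 12.3% and 6.43% of all loci. All genes within 25 kb, a choice made after seeing the data, gave 19 and 12 of 62 tested, beside 12.3% and 6.43% of all loci. The cause of these shifts was not tested beyond the number of genes or samples entered.

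The number of loci that met the limits, 10, was 3 with at most 0 counts allowed in N2, 4 with at most 1 and 35 with at most 10. It was 19 with at least 10 counts and 2 with at least 50 counts in osm-9(ok1677), and 10 to 15 when 1 replicate was left out. With the strains exchanged, the 6 loci became 1, 3 and 10 for at most 0, 1 and 10 counts, and 6 to 7 when 1 replicate was left out. The search for paralogs of the 9 loci by protein sequence was not run. With 2 N2 libraries per group and few counts, ratios to N2 are imprecise at most of the loci.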
